A study of Mus musculus with 6 samples.

Results

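The CCN family is the group of secreted matricellular proteins encoded by Ccn1 to Ccn6, and it was taken here by gene name: 6 genes of the 55291 in the deposited tables. Dorsal skin was taken after shaving from 3 TSK (tight skin) animals and 3 WT (wild-type) littermates and its RNA sequenced, with 1 library per mouse, to compare the cell populations of the skins. TSK mice carry 1 mutated copy of Fbn1, which encodes fibrillin 1 of the microfibrils, with a duplication inside the gene that is inherited and so not limited to a cell type. The labels give the strain C57BL/6 and an age of 6 to 8 weeks for both groups, and name no treatment. The labels also call all 6 mice female, whereas the methods of the study describe males, and Y-linked Ddx3y stood at 56.7 to 72.8 CPM (counts scaled to a library total of 1000000) and Xist at 2.57 to 4.58 CPM in every library.

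CCN proteins bind integrins, heparan sulfate proteoglycans and other matrix and growth factor partners, and act as modulators of adhesion, growth factor signalling and matrix turnover rather than as structural matrix. Most are built from an IGFBP-like domain, a von Willebrand factor C domain, a thrombospondin type 1 domain and a C-terminal cysteine knot. CCN1 (also called CYR61) and CCN2 (CTGF) are early targets of the YAP and TEAD pathway and of TGF-beta signalling, CCN2 is a long-used marker of fibrosis, and CCN3 (NOV) is described as a counterpart that can oppose CCN2. CCN4 and CCN5 (WISP1 and WISP2) were named for induction by Wnt signalling, and CCN6 (WISP3) is tied to cartilage disease. The family was selected on the TSK and WT levels of Ccn3 in these same libraries, and was chosen by that difference, so the TSK and WT values of its members are given as a description, without p-values. Where a member is counted among called genes, that count was fixed in part by the choice and supports nothing.

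The family resemblance is visible in the stretch that encodes the cysteine-rich motif of the IGFBP-like domain, shown because it is shared by all 6 members and because its differences bear on whether short reads can be told apart. Each line gives the coding strand, 5′ to 3′, with the 4 cysteine codons in capitals, from the GENCODE M21 transcripts on GRCm38 (mm10).
Ccn1: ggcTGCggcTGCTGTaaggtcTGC
Ccn2: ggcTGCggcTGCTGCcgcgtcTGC
Ccn3: ggcTGCtccTGCTGTccggtgTGC
Ccn4: ggcTGTgaaTGCTGTaagataTGT
Ccn5: ggcTGTggcTGCTGTcgagtgTGT
Ccn6: ggcTGTggaTGCTGCaaagtcTGT
The 24 bases lie in exon 3 of Ccn5 and in exon 2 of the other members. They are at chr3:145649331-145649354 on the minus strand for Ccn1, chr10:24595966-24595989 on the plus strand for Ccn2 and chr15:54746265-54746288 on the plus strand for Ccn3. Those of Ccn4 are at chr15:66906545-66906568 and those of Ccn5 at chr2:163825225-163825248, both on the plus strand, and those of Ccn6 at chr10:39158371-39158394 on the minus strand. The cysteine codons sit at the same places in all 6 genes, while the codons between them vary among the genes.

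Over the whole coding sequences, pairs of members were 59.3% (Ccn3 and Ccn6) to 66.3% (Ccn2 and Ccn3) identical in aligned bases. No pair shared a run of more than 18 bases, which is shorter than the 50-base reads, so members cannot have exchanged exact reads within their coding sequences. The coding sequences hold 348 to 379 codons without the stop, except that of Ccn5, which holds 251. Ccn5 also has the fewest cysteine codons, 29 against 37 to 40, since CCN5 lacks the C-terminal cysteine knot. Reads can be shared with genes outside the family: of the 50-base windows of the transcripts, 494 of 2867 in Ccn2 also lie in Gm15270, which runs antisense to it, 435 of 1370 in Ccn6 lie in the overlapping Tube1, and 32 of 2820 in Ccn3 match other genes, while Ccn1, Ccn4 and Ccn5 share none. Gm15270 was at 0.497 to 1.82 CPM and Tube1 at 1.82 to 3.11 CPM, so the counts of Ccn6 are uncertain.

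Libraries held 17561453 to 19219814 estimated counts, with overlapping ranges in the groups, and no libraries of a group were alike within counting noise (lowest chi-square per degree of freedom 8.02). The mutated gene, Fbn1, was at 262 to 289 CPM in the WT libraries and 1538 to 2284 CPM in the TSK libraries (log2 fold change 2.54, SE 0.22, edgeR adjusted p = 0.00327). With an adjusted p below 0.05 as the threshold, edgeR called 542 of 19971 tested genes higher in TSK and 136 lower, so 79.9% of calls were higher. With library size alone and no TMM factors (a scaling that limits the weight of a few abundant genes) this was 94.8%, and the median over all log2 fold changes was 0.25 in place of -0.03. Log2 fold changes below are TSK minus WT with TMM scaling unless another scaling is named. The calls depended on single libraries, and without WT 3 only 60 genes were called in all, in place of 678.

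Ccn3 was the member whose groups lay furthest apart. Its gene lies on chromosome 15 (54745702 to 54754039, plus strand). The 3 WT libraries had 2.06, 1.40 and 1.70 CPM, or 26.2 to 36.3 estimated counts, and the 3 TSK libraries 36.0, 51.8 and 37.1 CPM, or 655 to 996 counts. The groups did not overlap, with every TSK library far above every WT library. The mean CPM was 1.72 ± 0.334 in WT and 41.6 ± 8.84 in TSK (SD, n = 3), a ratio of 24.2, and the log2 fold change was 4.33 (SE 0.20). Ranked by log2 fold change, Ccn3 was number 9 of the 19971 genes tested. In bulk tissue, more cells that express Ccn3 and more Ccn3 RNA per cell cannot be told apart.

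Ccn2, the connective tissue growth factor and the most abundant member, lies on chromosome 10 (24595442 to 24598683, plus strand). Its levels were 55.5, 62.2 and 58.7 CPM in the WT libraries (1 to 3) against 62.9, 86.6 and 101 CPM in the TSK libraries. On these values the groups stood apart by less than 1 CPM, between WT 2 and TSK 1. After TMM scaling they overlapped, at 54.3 to 75.7 CPM in WT and 59.3 to 89.5 CPM in TSK, and the log2 fold change was 0.21 (SE 0.18). With library size only it was 0.51.

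Ccn1, the angiogenic and adhesive member, lies on chromosome 3 (145646976 to 145649981, minus strand). Its levels were 17.4, 17.5 and 21.4 CPM in the WT libraries against 26.6, 23.9 and 38.7 CPM in the TSK libraries, with TSK 3 highest. The groups overlapped after TMM scaling (17.0 to 24.2 CPM in WT, 21.5 to 34.4 CPM in TSK), and the log2 fold change was 0.37 (SE 0.20). With library size only the log2 fold change was 0.67.

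Ccn5, the member without the C-terminal domain, lies on chromosome 2 (163820861 to 163833146, plus strand). The WT libraries had 4.10, 3.89 and 4.84 CPM, and the TSK libraries 8.96, 5.46 and 24.5 CPM. The TSK libraries spread more widely than the groups differed, and TSK 3 was the highest by a wide margin. The log2 fold change was 1.31 (SE 0.48), and 0.50 without TSK 3.

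Ccn4 lies on chromosome 15 (66891320 to 66923201, plus strand). The WT libraries had 1.71, 1.97 and 5.39 CPM, and the TSK libraries 2.47, 2.91 and 4.51 CPM. The groups overlapped fully, with the highest value of all 6 libraries in WT 3. The log2 fold change was -0.17 (SE 0.46), with a sign that depended on WT 3 and on the scaling, since it was 0.57 without WT 3 and 0.13 with library size only.

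Ccn6, on chromosome 10 (39150970 to 39163794, minus strand), had 0, 0 and 1 counts in the WT libraries against 1, 1 and 3 counts in the TSK libraries. No library held more than 3 counts, so no fold change is given, and Ccn6 did not pass the filter on low counts. It was not detectable as a difference at this depth.

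**Figure D1:**
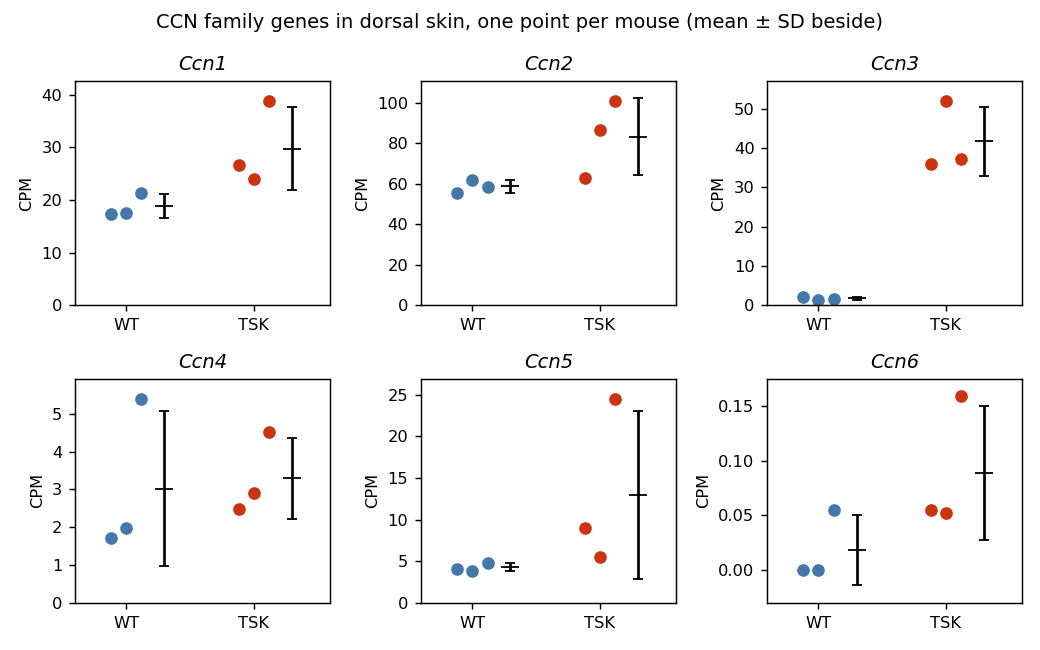
Deposited CPM of the 6 CCN genes, 1 panel per gene with its own linear axis, with 1 point per mouse (WT blue, TSK red, replicates 1 to 3 from left to right) and the mean ± SD of 3 mice beside them. Ccn3 is at 1.40 to 2.06 CPM in WT and 36.0 to 51.8 CPM in TSK, Ccn5 is spread by TSK 3 at 24.5 CPM, and Ccn4 overlaps between the groups.

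Of the 6 members, 5 passed the filter on low counts, and 1 of them, Ccn3, was called at an adjusted p below 0.05, where 2.71% of all tested genes were called higher and 0.681% lower. Ccn3 was also past an adjusted p of 0.01 with a fold above 2.5, as 0.255% of tested genes were. Because the contrast was used to choose the family, nothing is read from these counts. On the deposited CPM every TSK library was above every WT library in 4 members (Ccn1, Ccn2, Ccn3 and Ccn5), as in 29.1% of all tested genes, and on TMM-scaled CPM in 1 member (Ccn3), as in 14.1%. The other 4 tested members had log2 fold changes from -0.17 to 1.31, with a median of 0.29 beside -0.03 over all tested genes. Ccn3 exceeded Ccn5, the next member, by 3.02 on the log2 scale, and by 2.48 to 3.92 when 1 library at a time was left out.

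**Figure D2:**
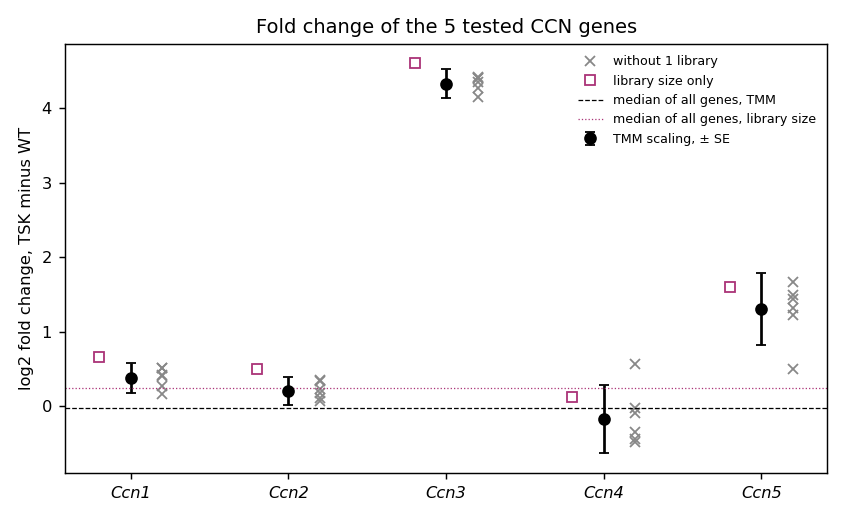
Log2 fold change (TSK minus WT) of the 5 tested CCN genes. Black points with bars are the estimate ± SE with TMM scaling, squares the estimate with library size only, crosses the estimates without 1 library each, and the lines the medians of all genes (-0.03 dashed, 0.25 dotted). Ccn3 stays between 3.96 and 4.60 in all settings run, of which the plot shows 4.15 to 4.60, while Ccn4 lies on both sides of 0 and Ccn5 falls to 0.50 without TSK 3.

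The family's make-up needs no scaling between libraries, since each member can be given as a share of the summed counts of Ccn1 to Ccn6 in its own library. Ccn3 held 2.56%, 1.61% and 1.85% of the family counts in the WT libraries, against 26.3%, 30.4% and 18.0% in the TSK libraries. It was thus a minor member in every WT library, while it held a larger share than Ccn1 in TSK 1 and TSK 2 and a slightly smaller one in TSK 3. The share of Ccn2 was 68.0% ± 3.93 in WT and 48.5% ± 2.44 in TSK (SD, n = 3), with no overlap (63.8% to 71.5% against 45.9% to 50.7%). Ccn1 held 21.6% ± 1.54 in WT and 17.4% ± 2.98 in TSK, Ccn4 3.41% ± 2.11 and 1.90% ± 0.255, and Ccn5 4.93% ± 0.411 and 7.22% ± 4.39. A smaller share of Ccn2 went with no lower level of Ccn2: the shares must add up to the whole, and Ccn3 took a larger one. With counts divided by exon length, Ccn3 held 1.82% ± 0.438 in WT and 22.7% ± 6.30 in TSK.

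The summed level of the family was 80.8 to 92.1 CPM in WT and 137 to 206 CPM in TSK. Without Ccn3 it was 78.7 to 90.4 CPM in WT and 101 to 169 CPM in TSK, with TSK 3 highest in both sums. After TMM scaling the sum without Ccn3 overlapped between the groups, at 76.9 to 104 CPM in WT and 95.2 to 149.7 CPM in TSK.

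**Figure D3:**
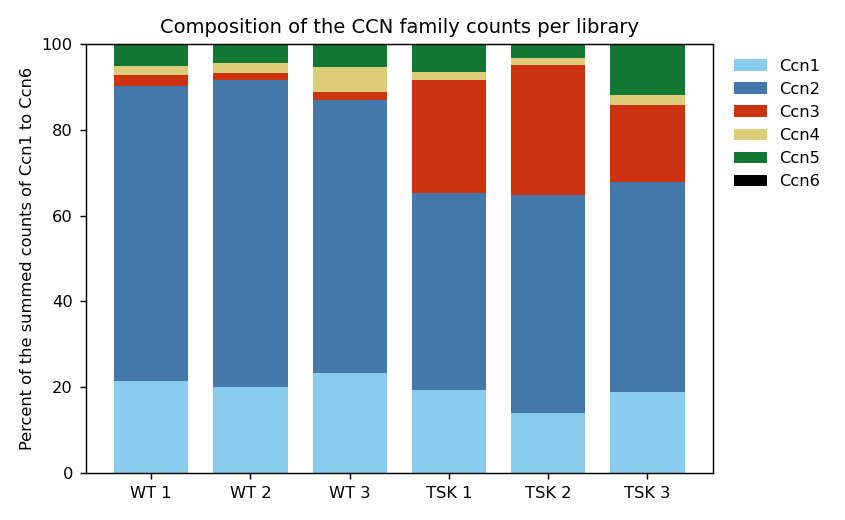
Share of each CCN gene in the summed counts of Ccn1 to Ccn6, in percent, with 1 bar per library. Ccn3 (red) takes 1.61% to 2.56% of the bar in WT and 18.0% to 30.4% in TSK, and Ccn2 (dark blue) is the largest part of every bar.

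Levels of different genes were compared per length, as CPM per kb of exon. In WT skin the order was Ccn2 at 20.6 ± 1.16 CPM per kb, Ccn1 at 9.29 ± 1.13, Ccn5 at 2.22 ± 0.259, Ccn3 at 0.6003 ± 0.116, Ccn4 at 0.543 ± 0.369 and Ccn6 at 0.0129 ± 0.0224 (SD, n = 3). Neighbours in this order had separate ranges, other than Ccn3 and Ccn4. In TSK skin the order was Ccn2 at 29.2 ± 6.69 CPM per kb, Ccn1 at 14.7 ± 3.90, Ccn3 at 14.5 ± 3.08, Ccn5 at 6.74 ± 5.26, Ccn4 at 0.593 ± 0.192 and Ccn6 at 0.0625 ± 0.0429. There Ccn1 and Ccn3 had overlapping ranges, as did Ccn3 and Ccn5, but within each TSK library Ccn5 was below both, and it was the order of Ccn1 and Ccn3 that changed between mice. Ccn3 thus moved from the range of Ccn4, near the bottom of the family, to the range of Ccn1.

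Summed marker levels of several cell types differed between the groups, so Ccn3 was also set against genes of fibroblasts, the main matrix-producing cells of the dermis. The 10 fibroblast markers, which include collagen genes, all had positive log2 fold changes (median 0.88), 2 of them were called higher with edgeR (Dpt and Thy1; all genes 2.71%) and none lower, with 8 higher at an unadjusted p below 0.05, 7 called by DESeq2 and 9 by limma on log2(CPM + 1). Over all genes, the unadjusted p was below 0.05 for 12.1% on the higher side and 7.9% on the lower, DESeq2 called 5.13% higher and 1.85% lower, and limma 8.87% and 0.501%, and counts by these rules below are to be read beside these shares. Their summed level was 6422 to 9742 CPM in WT and 20601 to 47615 CPM in TSK, with TSK 3 highest. Per 1000 counts of Pdgfra, a receptor gene typical of fibroblasts, Ccn3 had 29.4 to 72.4 counts in WT and 357 to 778 in TSK. Per 1000 counts of Col1a1, the major collagen gene, it had 0.472 to 0.822 in WT and 1.64 to 6.24 in TSK. Per 1000 counts of the 10 fibroblast markers together it had 0.162 to 0.322 in WT and 0.778 to 2.52 in TSK. Ccn3 was thus higher in every TSK library also relative to each of these, although the gap between the groups was narrower against Col1a1 and the summed markers than against Pdgfra. These ratios use the same difference that chose the family and are given as a description.

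Against Fbn1, itself raised in TSK, Ccn3 had 7.74, 4.84 and 6.51 counts per 1000 in the WT libraries against 23.4, 22.7 and 18.5 in the TSK libraries. The order was the opposite for Ccn1, with 60.7 to 81.6 counts per 1000 of Fbn1 in WT and 10.5 to 19.3 in TSK, and for Ccn5, with 13.5 to 18.5 in WT and 2.39 to 12.2 in TSK. Fbn1 and Col1a1 had log2 fold changes of 2.54 and 1.84 themselves, so most genes, having smaller ones, would fall against them. Against Col1a1, Ccn5 had 1.32 to 1.63 counts per 1000 in WT and 0.658 to 1.08 in TSK, and Ccn1 5.92 to 6.92 in WT and 1.71 to 2.92 in TSK. Against Pdgfra, the groups overlapped for both, at 81.7 to 144 (WT) and 82.0 to 236 (TSK) for Ccn5 and at 368 to 609 (WT) and 358 to 493 (TSK) for Ccn1.

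**Figure D4:**
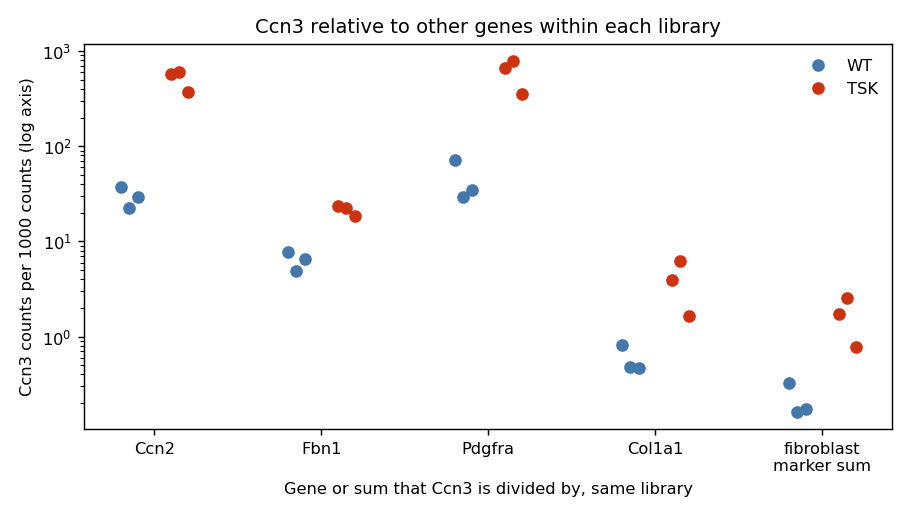
Ccn3 counts per 1000 counts of Ccn2, Fbn1, Pdgfra, Col1a1 and the summed fibroblast markers of the same library, on a log axis, with 1 point per mouse. Every TSK point is above every WT point in all 5 ratios, and the groups are nearest on this axis for Col1a1 (0.822 against 1.64).

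Of the other marker lists, where the share over all genes was again 2.71% higher and 0.681% lower, 3 of 8 adipocyte genes were called higher with edgeR (Plin1, Lep and Cfd; median log2 fold change 2.92), 2 of 8 endothelial genes (Tek and Vwf; 0.88), 1 of 8 smooth muscle and pericyte genes (Myh11; 0.55) and 1 of 8 keratinocyte genes (Lor; -0.28). At an unadjusted p below 0.05, 8, 8, 5 and 2 genes of these lists were higher, and 1 smooth muscle gene was lower. DESeq2 called 7, 3, 4 and 1 higher in these lists and limma 8, 6, 5 and 1. TSK 2 stood apart in the adipocyte genes, with a summed level of 3185 CPM against 724 in TSK 1 and 524 in TSK 3, and without it their median was 1.65 and 6 of 8 were called. Without WT 3, 0 genes of any marker list were called with edgeR. None of 9 skeletal muscle genes (-0.74), 7 Schwann cell genes (0.69) or 8 macrophage genes (0.97) was called with edgeR, and no gene of these lists was called lower with edgeR, while DESeq2 called 1 smooth muscle gene lower. At an unadjusted p below 0.05, 1 skeletal muscle gene was higher and 5 lower, 4 Schwann cell genes were higher and 6 macrophage genes were higher, and DESeq2 called 1 higher and 6 lower, 0 and 3 higher in these lists and limma 1, 2 and 3 higher. Without WT 1, edgeR called 5 skeletal muscle genes lower and 1 higher, 1 smooth muscle gene lower and 2 higher, and 2 Schwann cell genes higher. Without TSK 1 it called 3 macrophage genes higher. Without TSK 3 the median was 0.42 for Schwann cell genes and 0.41 for macrophage genes. Summed levels did not overlap between the groups for adipocyte genes (155 to 228 CPM in WT, 524 to 3185 in TSK), endothelial genes (141 to 168, 260 to 426), macrophage genes (214 to 342, 407 to 1113), skeletal muscle genes (138792 to 200441, 121092 to 136326) or smooth muscle and pericyte genes (2035 to 2413, 1680 to 2011). Most of the last sum was Des, a gene that skeletal muscle also expresses, at 1949 ± 193 CPM in WT and 1313 ± 89.8 CPM in TSK (log2 fold change -0.86, not called with edgeR), and the other 7 genes of that list had positive log2 fold changes. Cartilage is a known site of Ccn3 expression, and of 6 chondrocyte genes only Sox9 passed the filter on low counts (log2 fold change 0.21, not called), while Acan, Col2a1, Col9a1, Matn3 and Cnmd did not. The part of these cell types in the Ccn3 level was not tested.

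Genes linked to CCN proteins by known biology were counted from 6 lists with 96 distinct genes, of which 92 were tested, 8 called higher and 4 lower (all genes: 2.71% higher, 0.681% lower). Without WT 3, 0 were called higher and 1 lower. Among 13 tested receptors and coreceptors, 2 were called higher and none lower, with a median log2 fold change of 0.09. DESeq2 called 2 higher and limma 4, and the unadjusted p was below 0.05 for 3 higher and 2 lower. Itgb3, the beta subunit of the integrin αvβ3 that several CCN proteins bind, rose from 6.92, 6.89 and 8.38 CPM in WT to 16.2, 21.4 and 21.2 CPM in TSK (log2 fold change 1.12, SE 0.17, edgeR adjusted p = 0.0171). Lrp1, an endocytic receptor that binds CCN2 and the most abundant gene of the list, rose from 378 ± 14.5 to 911 ± 256 CPM (0.98, SE 0.21, adjusted p = 0.0475). Lrp1 kept its call in 1 of the 6 fits that left out a library, and Itgb3 in 5. Other integrin subunits did not pass the test, with Itgav, which pairs with Itgb3, at -0.30 (adjusted p = 0.243), Itgb5 at 0.44 and Itgb1 at -0.07.

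Of 19 tested YAP and TEAD targets other than the CCN genes, 4 were called higher and 2 lower (median 0.49), with an unadjusted p below 0.05 for 11 higher and 2 lower, 6 and 2 called by DESeq2 and 8 and 1 by limma. Ccdc80, a secreted matrix-associated protein, rose from 55.7 ± 10.7 to 209 ± 81.5 CPM (log2 fold change 1.59, adjusted p = 0.0324), the receptor tyrosine kinase gene Axl from 89.6 ± 9.60 to 251 ± 72.8 CPM (1.20, adjusted p = 0.0187), and Rbms3, an RNA-binding protein, from 26.3 ± 2.22 to 61.7 ± 10.4 CPM (0.95, adjusted p = 0.0132). Amotl2, a YAP-binding angiomotin, was also called higher (0.78, adjusted p = 0.0148). Ccdc80 kept its call in 3 of the 6 fits that left out a library, Axl in 4, and Rbms3 and Amotl2 in 5. Ankrd1, a YAP target that is also a stress-responsive gene of muscle, fell from 19.2, 5.27 and 20.7 CPM in WT to 1.48, 0.732 and 1.22 CPM in TSK (-3.96, SE 0.51, adjusted p = 0.0104), and it was the only one of the 12 linked genes called in all 6 fits that left out a library. The summed skeletal muscle markers, given above, were lower in TSK too, and their part in the Ankrd1 level was not tested. Gadd45a, a growth arrest gene, fell from 15.1 ± 5.22 to 8.02 ± 0.72 CPM (-1.17, adjusted p = 0.0337). Ptpn14, an inhibitor of YAP, was at -0.15 and not called. Targets of the pathway that Ccn1 and Ccn2 are known for thus included genes that rose and genes that fell, and Gadd45a kept its call in 1 of 6 fits that left out a library and in 4 of 7 other alternatives, losing it with library size only and in both limma fits.

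The promoter of Ccn1 is shown because Ccn1 is a classical TEAD target, and RefSeq promoter sequence was at hand for Ccn1 and Ccn6 among the members. The 250 bases before its start (RefSeq, GRCm38.p6, chr3:145649986-145650235, minus strand, 5′ to 3′) have the TEAD core CATTCC and the TATA box in capitals.
Ccn1 promoter: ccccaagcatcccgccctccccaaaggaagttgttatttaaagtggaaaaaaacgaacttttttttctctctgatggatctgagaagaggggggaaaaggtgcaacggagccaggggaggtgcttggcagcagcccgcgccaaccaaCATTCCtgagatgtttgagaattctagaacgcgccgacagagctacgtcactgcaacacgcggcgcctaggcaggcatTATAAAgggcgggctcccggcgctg
GGAATG or its reverse complement CATTCC occurred in 12.64% of 32851 promoters of this length, and TATAAA or TTTATA in 12.37%, both strands searched; the motifs share no letters here. The same window of Ccn6 held neither. Such matches are letters in a window and no measure of binding.

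None of 14 tested TGF-beta response genes was called in either direction with edgeR (median 0.29), although the unadjusted p was below 0.05 for 6 genes, all of them higher in TSK. DESeq2 called 5 higher and limma on log2(CPM + 1) 7. The collagen gene Col1a1 was at 3025 ± 555 CPM in WT and 13347 ± 8036 CPM in TSK, with TSK 3 far above the others, and a log2 fold change of 1.84 (adjusted p = 0.0654). Postn, which encodes the matricellular protein periostin, was at -0.11 and not called.

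Of 20 SRF target and immediate early genes, which respond to stimuli within minutes as Ccn1 does, 1 was called higher and 1 lower (median -0.10, and 0.18 with library size only). At an unadjusted p below 0.05, 4 were higher and 3 lower, and DESeq2 and limma each called 3 higher and 1 lower. Without WT 3 the median was 0.13. Klf2, a flow-responsive transcription factor of endothelium, rose from 25.0 ± 1.45 to 56.1 ± 7.48 CPM (log2 fold change 0.88, adjusted p = 0.0148). The AP-1 subunit gene Fosl1 fell from 1.77, 1.76 and 5.28 CPM to 0.605, 0.468 and 0.742 CPM (-2.56, adjusted p = 0.0381), and it kept its call in 1 of 6 fits that left out a library. Klf4 was at 0.60 (adjusted p = 0.0561), and Fos and Egr1 at -0.39 and -0.30, neither called.

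Of 10 tested canonical Wnt target genes, 1 was called higher and none lower with edgeR (median 0.64), with 5 higher at an unadjusted p below 0.05, 4 called higher by DESeq2 and 5 by limma. The transcription factor gene Lef1 rose from 3.57, 2.20 and 2.17 CPM in WT to 7.32, 6.24 and 6.86 CPM in TSK (log2 fold change 1.11, adjusted p = 0.0299), with a call kept in 1 of 6 such fits. Apcdd1, a Wnt inhibitor, was at 0.61 and Axin2 at -0.09, neither called.

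Other matricellular genes give the family's wider class. Of 17 tested, none was called higher and 1 lower with edgeR (median 0.60). At an unadjusted p below 0.05, 7 were higher and 3 lower, while DESeq2 called 4 higher and 1 lower, and limma 6 and 1. The bone and macrophage phosphoprotein gene Spp1 fell from 8.77, 4.40 and 5.83 CPM in WT to 2.25, 1.94 and 2.60 CPM in TSK (log2 fold change -1.74, SE 0.24, adjusted p = 0.0123). Sparc, the collagen-binding and most abundant member of the class, was at 564 ± 10.9 CPM in WT and 1544 ± 554 CPM in TSK (1.16, adjusted p = 0.0517), and the thrombospondin gene Thbs1 and the tenascin gene Tnc were at 0.65 and -0.70, neither called.

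**Figure D5:**
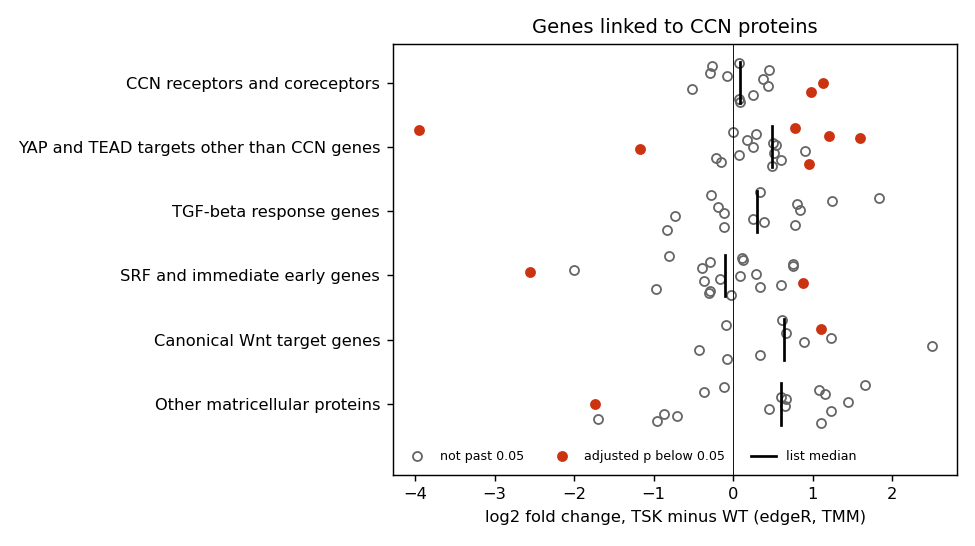
Log2 fold change (TSK minus WT, edgeR with TMM scaling) of the tested genes of the 6 linked lists, with 1 point per gene, filled where the adjusted p was below 0.05, and a black bar at each list's median. Medians run from -0.10 (SRF and immediate early genes) to 0.64 (Wnt targets), and the lowest point is Ankrd1 at -3.96.

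The chromosomal neighbours of Ccn3 were examined because position played no part in the choice of the family. Within 500 kb, measured between the lower genome coordinates of genes, 8 genes were tested, 2 were called higher and none lower (all genes: 2.71% and 0.681%), with a median log2 fold change of 0.13. Enpp2, which encodes autotaxin, the enzyme that makes lysophosphatidic acid, lies on the minus strand (54838901 to 54952892), with its 5′ end 207 kb from that of Ccn3, and was called, at 9.27 ± 0.648 CPM in WT and 34.8 ± 12.6 CPM in TSK (1.62, SE 0.25, adjusted p = 0.0176). Tnfrsf11b, the gene for the decoy receptor osteoprotegerin, has its 5′ end on the other side (at -467 kb) and rose from 2.20 ± 0.682 to 5.51 ± 0.316 CPM (1.07, adjusted p = 0.0344), a call kept in 1 of 6 fits that left out a library. Between and beyond them, Mal2 (0.57), Taf2 (0.15), Dscc1 (-0.24) and Deptor (-0.35) were not called. None of these neighbours approached the log2 fold change of Ccn3.

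The genes most like Ccn3 over the 6 libraries were found among 12016 genes with a mean of at least 5 CPM, by the root mean square difference between log2 CPM profiles centred on their own means, so that a low value means a profile of like size and shape. The ranking uses the TSK and WT difference in Ccn3 that chose the family, so it is a description only, and genes at a low WT level passed the minimum through their TSK libraries. The median over all genes was 2.15. The nearest were Dact2 (0.439), an intracellular antagonist in Wnt and TGF-beta signalling, Islr2 (0.614), Aldh1a3 (0.632), a retinoic acid synthesis enzyme, Ildr2 (0.645) and Retnla (0.696), a secreted product of alternatively activated macrophages and adipose tissue. Dact2 had 1.31, 1.44 and 0.66 CPM in the WT libraries against 16.4, 27.8 and 27.0 CPM in the TSK libraries. Islr2 (chromosome 9, 58196297 to 58204319) overlaps Islr (58156268 to 58204306) on the same strand, and its count is uncertain. Among the members, whose distance from Ccn3 follows from their smaller fold changes, Ccn5 was number 783 (1.79), Ccn1 number 2269 (1.98) and Ccn2 number 3237 (2.05), and Ccn4 and Ccn6 were below the minimum level.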

How the data were processed

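Stranded total RNA libraries depleted of ribosomal RNA had been sequenced as single-end reads of 50 bases. Per the labels, bcl2fastq 2.19.1.403, STAR, Partek 11.0 and the mm10 build were used. The deposited table named as raw holds estimated counts (43.3% to 45.4% of non-zero values were whole within 0.001). The test had been planned for raw counts, so they were rounded. The authors also deposited CPM, counts scaled to 1000000 per library.

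Genes kept by filterByExpr were tested with edgeR 4.0.16 (quasi-likelihood, TMM, R 4.3.3) with no covariate, p-values adjusted by Benjamini-Hochberg over 19971 genes. P-values measure the spread between mice, 3 per group. Levels per length used GENCODE M21 exon lengths, and the deposited coordinates and symbols were used for genes. Alternatives were scaling, filter, DESeq2 1.42.0, limma 3.58.1 on log2(CPM + 1) and log2(CPM + 0.1), the replicate number as a block, and fits without 1 library each. On simulated counts for this comparison, with 19663 genes tested, edgeR recovered 31 of 50 genes changed by 1 on the log2 scale, and 50, 49 and 50 of 50 changed by 2, 3 and 4, with 12 false calls. The simulation gave every gene the same spread beyond counting noise and changed only genes at a mean of at least 1 CPM. Its shares do not carry over to genes that vary more between mice, such as Adipoq (log2 fold change 3.13, edgeR adjusted p = 0.0519).

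The members and lists were chosen with earlier results of these data known, and the lists come from general knowledge. Named genes were the 6 members, Fbn1, up to 3 called genes per direction and the most abundant gene of each linked list by its mean over all libraries, protein-coding genes within 500 kb of Ccn3 and the 5 genes nearest to it in profile. Itgav, Itgb1, Itgb5, Postn, Fos, Egr1, Axin2, Thbs1, Tnc, Amotl2 and the marker genes named were added after their values were seen. Ddx3y, Xist, Gm15270, Tube1, Islr and the called genes near the other members were also named outside this rule. The cell type labels rest on marker lists only. Per the labels the libraries shared a sequencing lane, no other batch is named in the sources used here, and whether counting used strand is not stated in them.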

Additional observations from a re-analysis of the deposited data

How the results depend on the processing

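The family was chosen on the difference in Ccn3, so that Ccn3 and no other member was called in each of the 13 alternative fits is a description. Its log2 fold change was 4.60 with library size only and 3.96 with limma on log2(CPM + 1), and that of Ccn2 was 0.51 with library size only. The cause of the changes below was not tested.

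Genes called higher numbered 1685 with library size only, 1127 with DESeq2, 1040 with no filter, and 1771 and 1761 with limma (pseudocount 1 and 0.1). Genes called lower numbered 406 with DESeq2 and 347 with no filter. Past the stricter threshold, 51 genes were higher, and 290, 308, 295, 84, 269 and 314 with library size only, DESeq2, no filter, the replicate block and limma with pseudocount 1 and 0.1. Linked genes called higher numbered 32, 24, 22, 13, 33 and 33 in the same order.

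List medians with library size only and limma with pseudocount 1 and 0.1 were 0.37, 0.36 and 0.37 for receptors, 0.77, 0.73 and 0.77 for YAP and TEAD targets, 0.59, 0.58 and 0.59 for TGF-beta response genes and 0.18, 0.19 and 0.19 for SRF and immediate early genes. The Wnt median was 0.95 with limma (pseudocount 0.1) and the matricellular median 0.90 with library size only.

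Leaving out 1 library gave 45 to 713 genes called higher, 15 to 547 lower and 1 to 42 past the stricter threshold, and 0 to 16 linked genes higher and 1 to 7 lower. The lowest counts came without WT 3 and the highest counts called at 0.05 without WT 1. Log2 fold changes ranged from -0.48 to 0.57 for Ccn4 and from 0.50 to 1.67 for Ccn5, from 0.16 to 0.51 for Ccn1 and from 0.069 to 0.35 for Ccn2, the lowest of these last 3 without TSK 3, and list medians from 0.086 to 0.28 (receptors), from 0.47 to 1.00 (Wnt targets), from 0.17 to 0.39 (TGF-beta response genes) and from -0.17 to 0.13 (SRF and immediate early genes, positive without WT 3). Without WT 2, 287 genes were called, and 381 and 387 without TSK 2 or TSK 3.

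Deviations of same-numbered libraries correlated at 0.0112, 0.167 and -0.0938, which does not decide whether the replicate numbers pair mice. With the replicate block, 794 genes were called in place of 678. Depth limited Ccn6 and the WT level of Ccn3, which rested on 26.2 to 36.3 counts.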

Other observations

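Genes near the other members were counted in the same way as those near Ccn3. Within 500 kb of the 6 members, between lower genome coordinates, 51 genes were tested, 6 were called higher and 1 lower with edgeR at an adjusted p below 0.05 (all genes: 2.71% and 0.681%). With a window of 1 Mb, 103 were tested, 8 called higher and 1 lower. Measured between the 5′ ends of genes, an alternative chosen after seeing the data, 52 were tested within 500 kb, 6 called higher and 1 lower. Near Ccn1, Syde2 was called higher and the collagen gene Col24a1 lower, of 8 tested. Near Ccn6, which was itself barely counted, 2 of 8 were called higher: Fyn, a Src family kinase, and Lama4, a laminin chain of vessel and muscle basement membranes. Near Ccn5, 1 of 14 was called higher with edgeR (Wfdc5), with 6 at an unadjusted p below 0.05 and 4 called by DESeq2 and by limma, where 12.1% of all genes were higher and 7.9% lower at that unadjusted p, and 5.13% and 1.85% by DESeq2 and 8.87% and 0.501% by limma. Near Ccn2 and Ccn4 none of 8 and none of 5 were called with edgeR, with 1 gene near each at an unadjusted p below 0.05 and 0 and 1 called by DESeq2 and by limma on log2(CPM + 1). Without WT 3, none of the 7 called neighbours kept its call. Over the 6 fits that left out a library, Col24a1 and Wfdc5 kept their calls in 2, Syde2 in 4, and Fyn and Lama4 in 5.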
